A study of Mus musculus with 10 samples.

Results

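The genes described here are 9 enzymes of serine synthesis and one-carbon metabolism, taken by symbol from a table of 22186 genes, in RAW264.7 cells kept in medium or in medium with doxorubicin. All 9 symbols were in the table, and all 9 had a mean of at least 1 FPKM (a fragment count normalised for gene length and library size) over the 10 libraries, the level set for testing. They comprise 3 genes of serine synthesis (Phgdh, Psat1 and Psph), 4 mitochondrial one-carbon enzymes (Shmt2, Mthfd2, Mthfd1l and Aldh1l2) and 2 cytosolic ones (Shmt1 and Mthfd1).

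Serine is made from the glycolytic intermediate 3-phosphoglycerate by PHGDH, PSAT1 and PSPH in turn. SHMT enzymes then pass a carbon unit from serine to tetrahydrofolate, leaving glycine. In mitochondria the unit is oxidised by MTHFD2 and released as formate by MTHFD1L, while ALDH1L2 can burn it to carbon dioxide. In the cytosol SHMT1 and the trifunctional MTHFD1 work on the same folate carriers, mainly towards purines, thymidylate and methionine. The transcription factor ATF4 is known to drive many of the serine and mitochondrial folate genes when amino acids run short.

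RAW264.7 is an established macrophage-like mouse cell line, labelled WT in every library. Messenger RNA was read from 5 libraries of cells in medium and 5 of cells in medium plus doxorubicin, an anthracycline that poisons topoisomerase II, after 24 h. The dose is uncertain: sample titles say 10 nM, the series design says 100 nM and adds that the titles should read so, and the treatment protocol's dilution gives 1000 nM. Dimethyl sulfoxide is named as the solvent for doxorubicin and not for the medium cultures. Whether replicates were grown as independent cultures is not in the labels, so the spread behind each p-value may be technical. In bulk RNA, less transcript per cell and fewer cells with the transcript cannot be told apart.

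FPKM summed to 338293 to 356111 per library, and read depth was unknown. Both libraries of replicate number 1 stood apart, with correlations of 0.937 to 0.982 with the other 8 across the genes tested, against 0.976 to 0.998 among those 8. Of 8 macrophage markers, 7 had a mean of at least 1 FPKM, Mertk being the exception, and the sum of all 8 was 1322 to 1486 FPKM in medium and 1381 to 1599 with doxorubicin. Lyz2 and Itgam rose in limma's fit with the replicate block (log2 fold changes of 0.27 for both, adjusted p = 0.0235 and 0.0288). Neither passed without the block (0.174 and 0.488) or with the replicate sets 2 and 3, and 4 and 5, averaged (0.133 and 0.142), and their part in the results was not tested. Of 10 markers of other cell types, 4 were at 0 in every library, and the 10 summed to 0.948 to 1.93 FPKM in medium and 1.23 to 1.62 with doxorubicin.

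With doxorubicin, the genes of serine synthesis and of the mitochondrial branch lay lower on average than in medium, and the cytosolic pair Shmt1 and Mthfd1 lay higher. Aldh1l2 had the largest difference, to a mean of 0.391 times its level in medium, followed by Mthfd2 at 0.638 times and Psph at 0.662 times. Shmt2, Psat1, Mthfd1l and Phgdh stood at 0.771, 0.792, 0.830 and 0.845 times. Shmt1 stood at 1.17 times and Mthfd1 at 1.11 times. In every one of the 9 genes the 5 doxorubicin libraries overlapped the 5 medium libraries in range, whereas 3.97% of the 9869 genes tested had doxorubicin libraries all below and 2.73% all above.

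None of the 9 passed an adjusted p of 0.05 in limma's test with group as the only term, a threshold passed downwards by 0.223% and upwards by 0.689% of all genes tested. At an unadjusted p under 0.05, 6 of the 9 were lower and 0 higher, where 11.2% of all genes were lower and 6.62% higher. An exact permutation test with adjustment called 0 of the 9869 genes, so its 0 of 9 does not set the members apart. Libraries with the same replicate number varied together in each of the 5 numbers, so a fit with the number as a block stands beside these results. With the block 5 of the 9 fell (Phgdh, Psph, Shmt2, Mthfd2 and Aldh1l2) and 0 rose, against 13.7% of all genes that fell and 7.81% that rose. Across groups, numbers 2 and 3, and likewise 4 and 5, also varied together (correlations of 0.509 to 0.692). When their values were averaged, leaving 3 pairs, Aldh1l2 was the 1 member called (adjusted p = 0.0282), among the 0.152% of genes that fell in that fit, where 0.0912% rose. With the block and number 1 left out of both groups, 6 members fell, Psat1 being the addition, and 0 rose, against 18.4% and 10.2% of all genes; without the block 1 fell (Shmt2), against 2.77%.

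**Figure D1:**
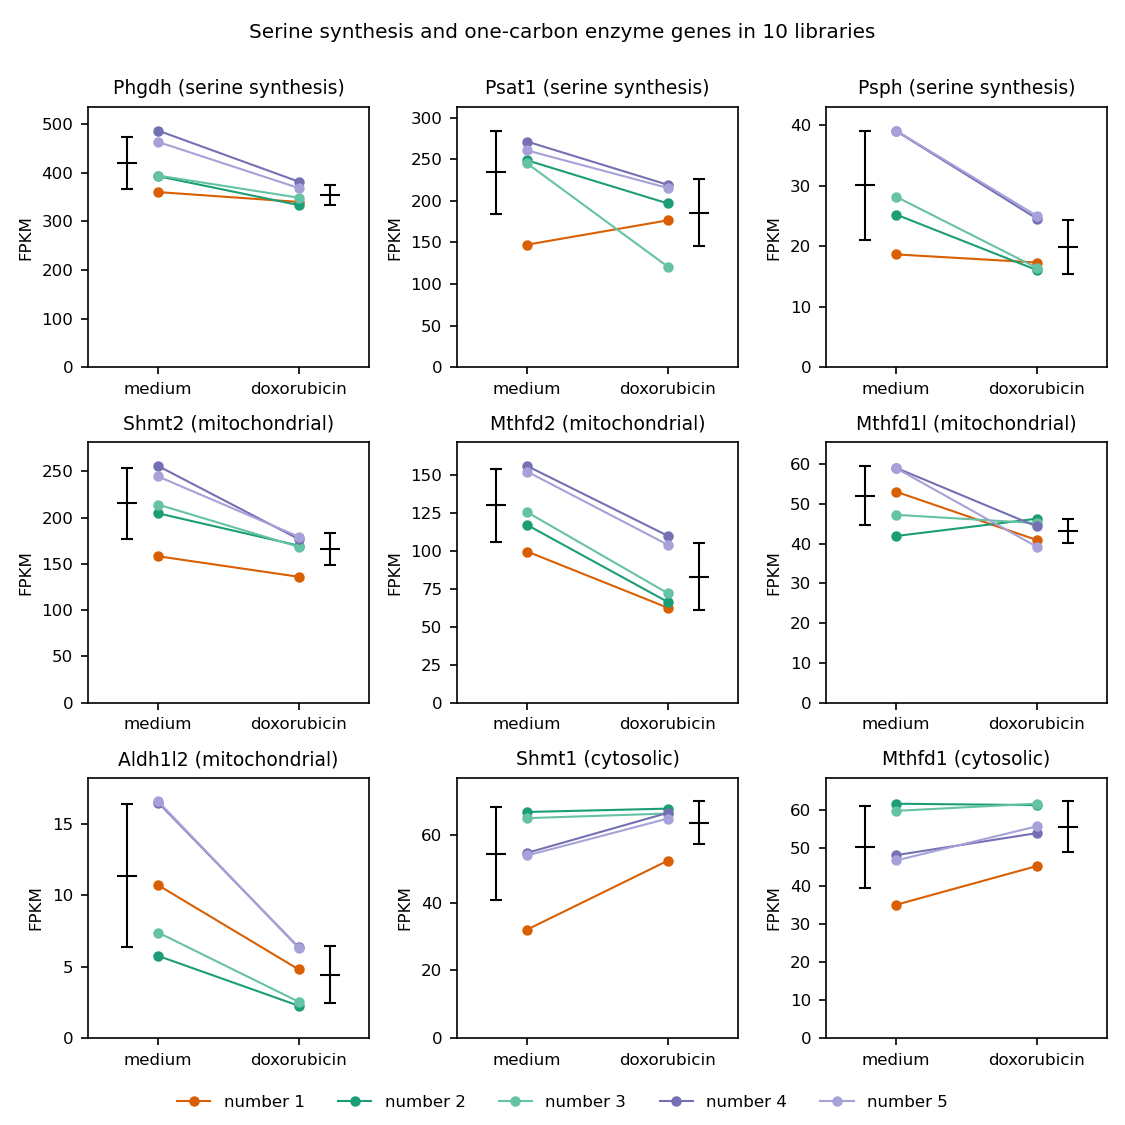
FPKM of each of the 9 genes in medium and with doxorubicin, with the 2 libraries of 1 replicate number joined by a line, and the group mean with its SD as a black bar (n = 5). Lines for Mthfd2, Aldh1l2, Shmt2, Psph and Phgdh slope down in all 5 numbers and those for Shmt1 slope up in all 5. Of all genes tested, 23.1% were lower and 13.2% higher in all 5 numbers. The ranges of the groups overlap in each panel.

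Of the serine synthesis genes, Phgdh and Psat1 had the highest mean levels of the 9 and Psph the second lowest. Phgdh, which commits 3-phosphoglycerate to serine, was at 359.8, 392.5, 393.8, 486 and 462.8 FPKM in medium replicates 1 to 5 and at 340, 333, 348, 381 and 368 FPKM with doxorubicin. It was lower in each replicate number, as were 23.1% of all genes tested, and most so in numbers 4 and 5, whose medium libraries held the highest levels. The group means were 419 ± 53.0 and 354 ± 20.1 FPKM (SD, n = 5), a log2 fold change of -0.23 (SE 0.09, limma adjusted p = 0.200) on the log2(FPKM + 1) scale used throughout. With the block its adjusted p was 0.0154 (0.00152 to 0.420 over all settings), and it missed the threshold with the block when number 4 or number 5 was left out.

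Phgdh also has close copies in the genome. In the GENCODE M21 transcripts, 55.9% of its 31-base words occurred in transcripts of other genes (23 of them, none listed in the deposited table), so its level is uncertain if reads were split among them. For the other 8 members that share was 0 (Mthfd1 and Mthfd2) to 3.55% (Shmt2), and 0 such words were shared between members.

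Psph, whose product removes the phosphate in the last step of serine synthesis, was at 18.7, 25.2, 28.2, 39.0 and 39.1 FPKM in medium and at 17.3, 16.1, 16.4, 24.6 and 25.03 FPKM with doxorubicin. All 5 numbers were lower with doxorubicin, but number 1 only by 0.10 on the log2 scale, where numbers 2 to 5 differed by -0.62, -0.74, -0.65 and -0.62. The log2 fold change was -0.55 (SE 0.21, limma adjusted p = 0.207), with an adjusted p of 0.00631 with the block (3.11e-05 to 0.430 over all settings).

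Psat1, the aminotransferase between PHGDH and PSPH, did not move uniformly. It was at 147, 249, 245, 271 and 260.5 FPKM in medium and at 177, 197, 121, 219 and 215.5 FPKM with doxorubicin. Medium replicate 1 was the low library of its group, so that number 1 was higher with doxorubicin by 0.26, and doxorubicin replicate 3 was the lowest of all 10, a difference of -1.01 within its number. The log2 fold change of -0.33 (SE 0.20) did not pass (limma adjusted p = 0.403, 0.124 with the block). Without both number 1 libraries it was -0.48, with an adjusted p of 0.0109 with the block (0.0109 to 0.681 over all settings). Without doxorubicin replicate 3 it was -0.19, and -0.16 with the block without number 3 (adjusted p = 0.681 and 0.293).

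**Figure D2:**
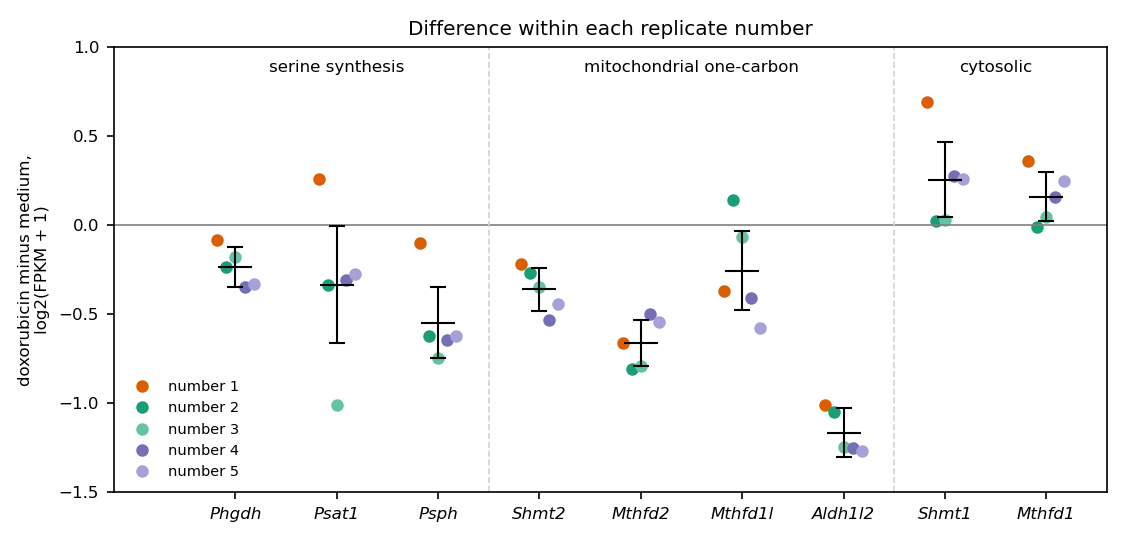
Difference between doxorubicin and medium on the log2(FPKM + 1) scale within each of replicate numbers 1 to 5 (coloured points), with the mean and its 95% interval from limma's fit with the replicate block in black. Aldh1l2 lies between -1.01 and -1.27 in all 5 numbers, Psat1 runs from 0.26 to -1.01, and Shmt1 lies above 0 in all 5.

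In the mitochondrial branch, the level of Shmt2, the enzyme that charges mitochondrial folate with carbon from serine, was 158, 205, 214, 256 and 244 FPKM in medium and 136, 170, 168, 177 and 179 FPKM with doxorubicin. Doxorubicin replicate 1 was the low library of its group, and the other 4 lay between 168 and 179 FPKM. Within numbers 1 to 5 the differences were -0.22, -0.27, -0.34, -0.53 and -0.44 on the log2 scale, and the fold change was -0.36 (SE 0.13, limma adjusted p = 0.186). With the block its adjusted p was 0.00492 (3.69e-04 to 0.393 over all settings), and it was also called without the block when medium replicate 1 (0.0356) or both number 1 libraries (0.0192) were left out.

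Mthfd2, the mitochondrial dehydrogenase and cyclohydrolase, was at 99.7, 117, 126, 156 and 152 FPKM in medium and at 62.6, 66.4, 72.2, 110 and 104 FPKM with doxorubicin. The overlap of the groups came from the 2 doxorubicin libraries of numbers 4 and 5, which were above the medium library of number 1. Each number was lower by 0.50 to 0.81 on the log2 scale, with a fold change of -0.66 (SE 0.18, limma adjusted p = 0.117; 5.59e-04 with the block; 1.22e-04 to 0.280 over all settings).

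Mthfd1l, which releases formate in mitochondria, was the mitochondrial member whose direction varied. It was at 53.1, 41.9, 47.3, 59.1 and 59.0 FPKM in medium and at 40.9, 46.3, 45.2, 44.3 and 39.2 FPKM with doxorubicin. Number 2 was higher by 0.14 and number 3 lower by 0.06 on the log2 scale, while numbers 1, 4 and 5 were lower by 0.37, 0.41 and 0.58. The fold change of -0.25 (SE 0.10) did not pass without the block (limma adjusted p = 0.218) or with it (0.0893; 0.00186 to 0.446 over all settings), and it passed with the block when number 2 was left out.

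Aldh1l2, the mitochondrial formyltetrahydrofolate dehydrogenase, had the lowest level and the largest relative difference of the 9. Its levels were 10.7, 5.75, 7.38, 16.5 and 16.6 FPKM in medium and 4.80, 2.26, 2.54, 6.34 and 6.30 FPKM with doxorubicin. The doxorubicin libraries of numbers 4 and 5 were above the medium library of number 2, and the medium libraries themselves differed between numbers. Within numbers 1 to 5 the differences were close to each other, at -1.01, -1.05, -1.25, -1.25 and -1.27. The fold change was -1.17 (SE 0.32, limma adjusted p = 0.120) without the block and had an SE of 0.06 with it (adjusted p = 7.98e-05; 5.45e-06 to 0.282 over all settings). The call with the block was kept when any 1 replicate number was left out of both groups, as were those of Mthfd2, Shmt2 and Psph.

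Among the cytosolic genes, Shmt1, the counterpart of Shmt2, was at 32.05, 66.8, 64.9, 54.7 and 53.9 FPKM in medium and at 52.4, 67.8, 66.3, 66.5 and 64.8 FPKM with doxorubicin. It was higher in all 5 numbers (13.2% of all genes tested were), but by 0.69 in number 1 and by 0.02 and 0.03 in numbers 2 and 3. The fold change was 0.26 (SE 0.18, 95% interval -0.13 to 0.64, limma adjusted p = 0.477; 0.0778 with the block; 0.0134 to 0.658 over all settings). Leaving out medium replicate 1, the lowest of the 10 libraries, brought it to 0.08.

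Mthfd1, which carries the dehydrogenase, cyclohydrolase and ligase activities in the cytosol in 1 protein, was at 35.1, 61.8, 59.9, 48.2 and 46.8 FPKM in medium and at 45.3, 61.4, 61.8, 54.0 and 55.8 FPKM with doxorubicin. It was higher in 4 of 5 numbers and lower by 0.01 in number 2. The fold change of 0.16 (SE 0.15, 95% interval -0.16 to 0.49, limma adjusted p = 0.607; 0.0870 with the block; 0.0489 to 0.848 over all settings) was 0.04 without medium replicate 1, where the gene was lowest.

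In order of level, Phgdh was above Psat1 in all 5 medium libraries, Psat1 above Shmt2 in 4 of 5, and Shmt2 above Mthfd2 and Mthfd2 above Shmt1 in all 5. The next 3 in medium, Shmt1, Mthfd1l and Mthfd1 (54.5 ± 13.8, 52.1 ± 7.47 and 50.4 ± 10.8 FPKM), did not differ beyond their spread. Within medium libraries, Shmt1 was above Mthfd1l in 2 of 5 and Mthfd1l above Mthfd1 in 3 of 5. Shmt1 was above Mthfd1 in every medium replicate but number 1 (32.05 and 35.1 FPKM). With doxorubicin, Shmt1 was above Mthfd1 and Mthfd1 above Mthfd1l in all 5 libraries (63.6 ± 6.33, 55.7 ± 6.71 and 43.2 ± 2.98 FPKM). The spreads of Shmt1 and Mthfd1 still overlapped, and that of Mthfd1l lay below both. Psph and then Aldh1l2 closed the order in every library of both groups.

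To set the compartments against each other, the mitochondrial enzyme gene was divided by the cytosolic gene of the same reaction within each library, with differences and tests on the log2 scale after adding 1 FPKM to both genes. Shmt2 was present at 4.94, 3.06, 3.30, 4.67 and 4.53 times Shmt1 in medium and at 2.60, 2.504, 2.54, 2.66 and 2.77 times with doxorubicin. The groups did not overlap, and the ratio was 4.10 ± 0.857 in medium and 2.61 ± 0.104 with doxorubicin (SD, n = 5). On the log2 scale the difference was -0.62 (exact permutation test, two-sided, p = 0.00794, the smallest that 5 against 5 allows, and adjusted p = 0.0238 over 3 pairs). The test takes the libraries as independent, while numbers 2 and 3, and 4 and 5, varied together (correlations of 0.509 to 0.692). None of the 3 ratios was tested with these numbers averaged. The genes of the pairs were chosen with earlier results of these data known, a choice that the adjustment over 3 pairs does not cover.

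Mthfd2 was present at 2.84, 1.90, 2.10, 3.24 and 3.26 times Mthfd1 in medium and at 1.38, 1.08, 1.17, 2.04 and 1.87 times with doxorubicin. Only the doxorubicin library of number 4 reached above the lowest medium library, and the log2 difference was -0.82 (exact permutation p = 0.0159, adjusted p = 0.0238). For Mthfd1l over Mthfd1 the ratios were 1.51, 0.679, 0.789, 1.23 and 1.26 in medium and 0.903, 0.754, 0.731, 0.821 and 0.703 with doxorubicin. The groups overlapped, number 2 went the other way, and the log2 difference of -0.42 did not pass (exact permutation p = 0.127, adjusted p = 0.127).

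The 4 mitochondrial genes summed to 2.87 to 4.79 times the cytosolic pair in medium and to 2.20 to 2.80 times with doxorubicin, without overlap, given here as a description with no test. This sum rests mainly on Shmt2 and Mthfd2 (medium means of 215 and 130 FPKM), with Mthfd1l at 52.1 and Aldh1l2 at 11.4 FPKM. With the replicate number as a block, the sign-flip permutation of 5 pairs cannot go below p = 0.0625, which both Shmt2/Shmt1 and Mthfd2/Mthfd1 reached (adjusted p = 0.0938), each lower in 5 of 5 numbers. Without both number 1 libraries the log2 differences of these ratios were -0.54 (exact permutation p = 0.0286, adjusted p = 0.0857) and -0.77 (p = 0.0571, adjusted p = 0.0857). The difference in Shmt2/Shmt1 was largest in number 1 (-0.91) and smallest in number 2 (-0.29). The cytosolic partner of Aldh1l2, Aldh1l1, had 0.654 to 1.40 FPKM in medium and 0.743 to 2.03 with doxorubicin, a mean below 1 FPKM, and this pair was not tested.

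**Figure D3:**
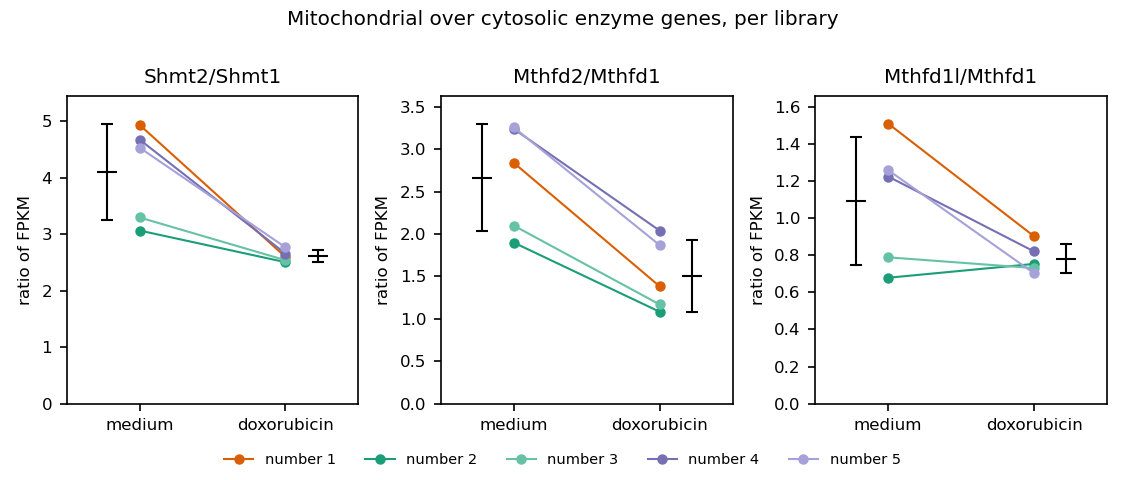
Ratio of FPKM of the mitochondrial over the cytosolic gene in each library, for the 3 pairs tested, with the libraries of 1 replicate number joined and the group mean and SD in black (n = 5). For Shmt2/Shmt1 the 5 doxorubicin libraries sit between 2.504 and 2.77, all below the medium libraries.

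RefSeq start-site windows (250 bases before to 50 after, build GRCm38.p6, which is not the build of the deposited table) were matched by symbol for 8 of the 9 genes, in 9 windows. The 4 windows printed here set 2 mitochondrial genes that fell with the block beside the 2 cytosolic genes. Each is written 5′ to 3′ on the strand of the gene, with matches to CCAAT, or to ATTGG for the other strand, in capitals.
Mthfd2, mitochondrial, chr6:83317555-83317854, minus strand: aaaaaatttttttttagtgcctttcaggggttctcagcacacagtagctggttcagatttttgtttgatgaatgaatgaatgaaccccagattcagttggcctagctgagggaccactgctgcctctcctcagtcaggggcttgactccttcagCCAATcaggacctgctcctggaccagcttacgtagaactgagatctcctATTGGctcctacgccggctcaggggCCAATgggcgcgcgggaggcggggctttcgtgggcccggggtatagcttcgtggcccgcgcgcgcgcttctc
Mthfd1, cytosolic, chr12:76254982-76255281, plus strand: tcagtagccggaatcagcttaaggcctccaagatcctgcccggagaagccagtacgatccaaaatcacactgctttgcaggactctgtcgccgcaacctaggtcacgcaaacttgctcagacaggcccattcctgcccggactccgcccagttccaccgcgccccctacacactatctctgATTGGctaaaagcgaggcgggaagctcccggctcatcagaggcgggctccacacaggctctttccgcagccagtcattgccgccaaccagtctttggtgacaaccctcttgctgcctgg
Shmt2, mitochondrial, chr10:127522395-127522694, minus strand: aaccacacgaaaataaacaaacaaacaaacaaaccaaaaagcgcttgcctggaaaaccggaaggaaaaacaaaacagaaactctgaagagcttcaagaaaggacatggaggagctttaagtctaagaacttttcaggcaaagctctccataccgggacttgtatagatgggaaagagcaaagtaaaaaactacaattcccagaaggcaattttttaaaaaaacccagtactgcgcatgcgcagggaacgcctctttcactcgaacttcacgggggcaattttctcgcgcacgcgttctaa
Shmt1, cytosolic, chr11:60811216-60811515, minus strand: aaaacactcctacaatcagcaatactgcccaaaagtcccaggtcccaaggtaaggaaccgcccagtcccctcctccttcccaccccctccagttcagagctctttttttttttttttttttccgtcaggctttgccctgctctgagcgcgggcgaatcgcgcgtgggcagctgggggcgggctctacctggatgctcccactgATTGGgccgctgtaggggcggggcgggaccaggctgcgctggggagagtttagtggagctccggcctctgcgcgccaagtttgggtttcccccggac
These windows hold 3, 1, 0 and 1 matches to CCAAT, in the order printed. A match was present in 6 of the 9 windows of the members (both cytosolic genes, Mthfd2, Phgdh, Psph and 1 of the windows of Psat1) and in 37.4% of the 32851 windows of all genes. TGATGNAA, the core of the element that ATF4 binds together with C/EBP proteins, was searched on both strands and matched 0 of the 9 windows and 3.97% of all. The E-box CACGTG and the cyclic AMP response element TGACGTCA, each its own reverse complement, also matched 0 of 9, against 7.15% and 1.79% of all. The windows of the members held 8 to 30 CpG (C followed by G), against a median of 7 in all windows. The shares of all windows are therefore not matched to the members in base composition. A match is a description of letters in the window, and its absence says nothing of sites elsewhere in the gene.

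The rest of folate and serine metabolism was read from lists of related genes. Of the folate cycle list, 13 other enzymes were tested. Ggh, a folate hydrolase gene, differed by -0.16 and Qdpr, the dihydropteridine reductase gene, by 0.09, with adjusted p of 0.0662 and 0.197 with the block. The list median was -0.03, as was the median over all genes tested (-0.03).

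De novo purine synthesis, which draws on formyl-tetrahydrofolate, had 12 genes tested. Of these, 0 passed without the block (1 higher and 0 lower at an unadjusted p under 0.05) and 1 rose with it. The shares of all genes tested were 6.62% higher at an unadjusted p under 0.05 and 7.81% higher with the block. Prps2, which makes the ribose phosphate donor, went from 17.7 ± 3.36 to 23.2 ± 0.784 FPKM (0.39, limma adjusted p = 0.121; 0.0194 with the block; 8.65e-04 to 0.283 over all settings). The call was lost with averaged numbers (adjusted p = 0.129) and with the block without number 4 or 5 (0.0746 and 0.0774). Gart and Atic, the enzymes of the pathway that use formyl-tetrahydrofolate, differed by 0.21 and 0.13, with adjusted p of 0.154 and 0.109 with the block. Without medium replicate 1 they differed by 0.018 and 0.031, and Gart by 0.73 in number 1 against -0.0028 to 0.13 in the other numbers. The median of this list was 0.08.

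Of 10 methionine cycle and salvage genes tested, 0 passed without the block (1 lower and 0 higher at an unadjusted p under 0.05) and 1 fell with it, the methionine salvage gene Apip (16.03 ± 0.402 and 13.5 ± 1.07 FPKM, -0.23, limma adjusted p = 0.117; 0.0201 with the block; 0.0145 to 0.265 over all settings). Its call was lost with averaged numbers (adjusted p = 0.137) and with the block without number 2 or 4 (0.0581 and 0.0854). Mri1, also of methionine salvage, differed by -0.11 and Ahcyl1 by -0.16, with adjusted p of 0.119 and 0.0504 with the block. The list median was -0.01. Among all genes tested, 11.2% were lower at an unadjusted p under 0.05 and 13.7% fell with the block. None of the 7 serine-using genes, 6 carriers of folate or serine and 2 glycine cleavage genes tested passed with or without the block. The medians of these lists were 0.04, 0.04 and 0.07. Sptlc2 was the 1 gene with an unadjusted p under 0.05 and was higher, as were 6.62% of all genes tested. In these lists Sptlc2, a subunit of serine palmitoyltransferase, differed by 0.23, the phosphatidylserine synthase gene Ptdss1 by 0.13, Serinc3 by 0.07, the mitochondrial carrier Sfxn3 by 0.11, Sfxn1 by 0.04, the folate transporter Slc46a1 by 0.07, Gcsh by 0.19 and Dld by -0.05. With the block and number 1 left out, Sfxn3 and Sptlc2 were higher (limma adjusted p = 0.0403 and 0.0488), as were 10.2% of all genes tested. The lowest adjusted p of Gcsh over all settings was 0.0397.

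**Figure D4:**
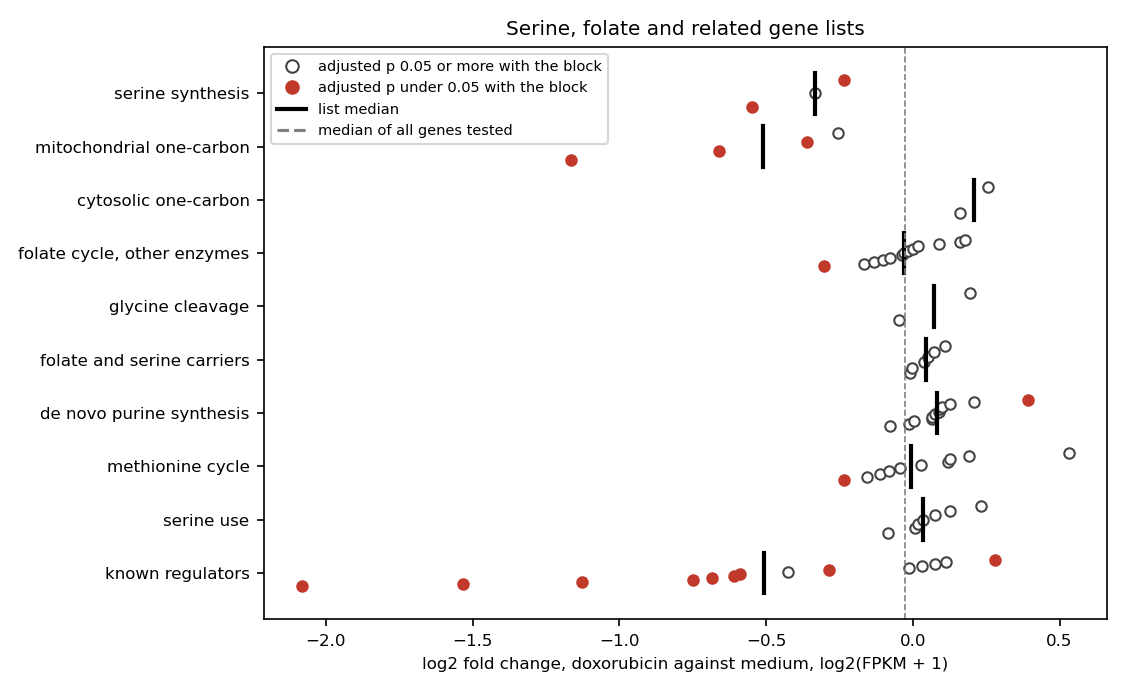
Log2 fold change of each tested gene by list (points, filled where the adjusted p in limma's fit with the replicate block was under 0.05), with the list median as a black bar and the median of all genes tested as a dashed line. Serine synthesis, mitochondrial one-carbon and regulator genes lie mostly left of the dashed line. The other folate and the methionine genes lie on both sides of it. The carrier genes and all purine genes but Impdh1 lie right of it.

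Among 14 genes of known regulators, 0 passed without the block (7 lower and 0 higher at an unadjusted p under 0.05). With it 8 fell (Atf4, Atf3, Ddit3, Cebpb, Cebpg, Nupr1, Trib3 and Myc) and 1 rose (Eif2ak2, 0.28). Of all genes tested, 11.2% were lower and 6.62% higher at an unadjusted p under 0.05, and 13.7% fell and 7.81% rose with the block. Atf4 differed by -0.68, Nupr1 by -1.13, Ddit3 by -1.53 and Trib3, an ATF4 target that feeds back on it, by -2.08. Ddit3, Nupr1 and Trib3 were also called when numbers 2 and 3 and numbers 4 and 5 were averaged (limma adjusted p = 0.0411, 0.0443 and 0.00244). In that averaged fit 0.152% of all genes tested fell. Atf5, at -0.43, did not pass with the block (adjusted p = 0.0504). It was higher by 0.27 in number 1 and lower by 0.44 to 0.73 in numbers 2 to 5, and leaving number 1 out of the blocked fit gave -0.60 (adjusted p = 1.67e-04).

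The genes whose levels followed each member most closely were ranked by Pearson's r of log2(FPKM + 1), taking the lower of r over all 10 libraries and r over the 8 libraries of numbers 2 to 5. These values share libraries, treatment and replicate sets, and are given as a description with no p. Trib3 (0.991) and Soat2 (0.990) were nearest to Aldh1l2. Gars, the glycyl-tRNA synthetase gene, was nearest to both Phgdh (0.987) and Psph (0.983), with Rad17 (0.979) next for Phgdh and Aars (0.982) for Psph. Slc9a8 (0.984) and Cenpe (0.981) were nearest to Mthfd2, and Slc25a46 (0.979) and Gabpb2 (0.979) to Shmt2. For the cytosolic genes the nearest were Fam91a1 (0.983) and ND1 (0.982) for Shmt1, and Ywhah (0.995) and Bpnt1 (0.989) for Mthfd1. Psat1 (Efcab7 at 0.947, Zfp772 at 0.911) and Mthfd1l (Zbtb7b at 0.905, Slx1b at 0.903) had no neighbour as close.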

How the data were processed

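Poly(A) RNA of 5 medium and 5 doxorubicin libraries was sequenced, per the labels' protocols. The deposited values were FPKM, made by the authors, in 1 column per library. Genome build GRCm39 is given per the submitters' processing notes, and the aligner, quantifier and annotation are not given in the sources used here. Low FPKM values showed no whole-read steps, so depth was unknown and no counting interval was given.

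Columns were matched to libraries by library name and analysed as log2(FPKM + 1). Testing took the 9869 of 22186 genes whose average over 10 libraries reached 1 FPKM, with limma 3.58.1 in R 4.3.3, group as the only term, mean-variance trend and Benjamini-Hochberg adjustment over all genes tested, at 0.05. Pair ratios used exact permutation tests over libraries (SciPy 1.17.1), adjusted over 3 pairs. The limma fits were tested on simulated data in which the libraries were drawn independently, without the shared variation of replicate numbers. The pair test was checked on fixed values of separated groups only.

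Members and lists were chosen with earlier results of these data known. Named genes were all members, from each other list up to 3 genes, by smallest adjusted p, 9 regulators, and for each member the 2 genes with the closest pattern. Replicate numbers come from the sample titles. Deviations from the group mean of same-numbered libraries correlated at 0.794, 0.700, 0.667, 0.524 and 0.547 for numbers 1 to 5 (0.509 to 0.692 between numbers 2 and 3 or 4 and 5), so the numbers were used as a block beside the test. Alternatives were the block, pseudocount 0.1, filters, scalings, library quality weights, a permutation test and left-out libraries. Fits with the block that left out numbers 2 to 5 in turn, or averaged numbers 2 with 3 and 4 with 5, were added after seeing the data. A result of the folate cycle list is not reported here. Promoter windows came from RefSeq, and 31-base words from GENCODE M21 transcripts.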

Additional observations from a re-analysis of the deposited data

Results flagged for a closer look

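In the 5 medium libraries, Psat1 in replicate 1 lay far below the other 4 on the log2 scale, with a gap to the nearest of 0.833 of the range of the group, above the 95% limit of Dixon's test for 5 samples. Shmt1 and Shmt2 did the same in doxorubicin replicate 1, with gaps of 0.827 and 0.771 of the range. All 3 values belong to the libraries of replicate number 1, which stood apart across all genes. Chance marks about 1 group in 20, and 24 groups were looked at (9 genes and 3 ratios in each of 2 groups).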

How the results depend on the processing

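No member changed direction under the 25 alternatives, in 225 combinations of member and setting, of which 42 passed the threshold. With all 10 libraries, the block, the permutation test and the filters leave the fold change the same by design. Those settings could not have changed a direction. Members called lower were 0 in the test without the block, 5 with the replicate block, 7 with library quality weights (and 2 higher, Shmt1 and Mthfd1; the weights called 1379 genes higher and 2302 lower), 1 without both number 1 libraries, 6 without them with the block, 0 to 6 when single libraries or numbers were left out, and 1 (Aldh1l2) with numbers 2 and 3 and numbers 4 and 5 averaged. The counts of genes higher with doxorubicin and genes lower with doxorubicin were 68 and 22 without the block, 771 and 1356 with the replicate block, 40 higher with a filter at 5 FPKM, 0 and 0 with the exact permutation test, 283 and 273 without both number 1 libraries, 1010 and 1817 without them with the block, 9 higher with averaged numbers, 15 to 136 and 0 to 90 when 1 library was left out, and 727, 430, 264 and 254 higher and 822, 870, 373 and 374 lower with the block when number 2, 3, 4 or 5 was left out. The cause of these moves was not tested.

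For the pair ratios, the replicate block gave -0.62 for Shmt2/Shmt1 and -0.82 for Mthfd2/Mthfd1, where 5 pairs cannot reach the threshold. Without both number 1 libraries they were -0.54 and -0.77, with an adjusted p of 0.0857 for both, and 4 against 4 cannot go below 0.0286 before adjustment. Leaving out single libraries gave -0.71 to -0.55, -0.94 to -0.72 and, for Mthfd1l/Mthfd1, -0.57 to -0.29, the last with a call only without medium 2 (adjusted p = 0.0476). Dld ranged from -0.097 to 0.0017 when 1 library was left out, above 0 without doxorubicin 2. The neutrophil gene S100a8 (-0.02) ranged from -0.12 to 0.074, above 0 without medium 2, medium 5 (0.0098) or doxorubicin 4 (0.010), and was 0.027 and 0.028 with the block without number 2 and number 5, and 0.033 with averaged numbers. Read depth is unknown, so precision at low FPKM, as for Aldh1l2, could not be given.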

Other observations

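Gldc, the glycine decarboxylase of the mitochondrial glycine cleavage system, lay below the level set for testing and was picked here after its values were seen. It was at 0.415, 0.433, 0.438, 0.343 and 0.394 FPKM in medium and at 0.689, 0.870, 0.755, 0.747 and 0.722 FPKM with doxorubicin, so the groups did not overlap. With no filter on low values Gldc had a fold change of 0.32 (SE 0.03, limma adjusted p = 0.00688), a scale on which the added 1 FPKM shrinks differences at such levels. Gldc was higher in 5 of 5 numbers. The fit with no filter called 68 genes higher and 24 lower of 15731. Among the 9869 genes at or above the level set for testing, 2.73% were higher without overlap and 13.2% higher in 5 of 5 numbers.

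Mat2a, which makes S-adenosylmethionine from methionine, was at 19.4, 96.8, 91.2, 57.1 and 57.8 FPKM in medium and at 58.6, 99.2, 97.8, 81.2 and 80.4 FPKM with doxorubicin, higher in 5 of 5 numbers (limma adjusted p = 0.485; 0.0766 with the block; 0.0211 to 0.672 over all settings). Of all genes tested, 13.2% were higher in 5 of 5 numbers, and Mat2a was also picked after its values were seen. Like Shmt1 and Mthfd1, it was lowest of the 10 libraries in medium replicate 1.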
